A study of Mus musculus with 9 samples.

Results

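Genes that mark natural killer (NK) cells and other cytotoxic lymphocytes were followed in RNA of sorted mouse liver macrophages, namely Ncr1, Klrb1c, Klre1, Nkg7, Gzma, Gzmb, Prf1, Eomes, Tbx21 and Xcl1. They were chosen by name as NK receptors, cytotoxic granule proteins, T-box factors and an NK chemokine, with earlier results of these data known. They are 10 of the 56691 genes in the deposited table. The macrophages were sorted by the surface proteins F4/80 and CD11b from livers of young adult male C57BL/6 mice at 0, 24 and 48 h after partial hepatectomy (PHx), the surgical removal of most of the liver, with 3 libraries per time. The labels name no genetic change or drug in any group, and the 0 h libraries were the baseline. Neither labels nor methods state that replicate libraries were drawn from different mice, so p-values measure the spread between libraries, which may be technical. In such bulk RNA, more cells of a type and more RNA per cell cannot be told apart.

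NK cells and cytotoxic T cells kill target cells by releasing granules at the point of contact. Perforin, made from Prf1, opens the target membrane, and granzymes A and B, made from Gzma and Gzmb, are proteases that then enter the target. NK cells read their targets through receptors such as NKp46 (Ncr1), NK1.1 (Klrb1c) and the lectin-like Klre1, while the T-box factors Eomes and T-bet (Tbx21) set up the cytotoxic programme. The mouse liver is rich in NK cells and in the related type 1 innate lymphoid cells (ILC1), which carry T-bet but little Eomes. Nkg7, Gzma, Gzmb, Prf1, Tbx21, Eomes and Xcl1 are also made by activated T cells. Ncr1 and Klrb1c are used as markers of NK cells and ILC1, but NK1.1 alone does not exclude T cells. In its flow cytometry the paper gated NK cells as positive for NK1.1 and negative for the T-cell protein CD3ε. CD11b, one of the proteins of the sort, is carried by mature mouse NK cells too. The paper's NK gate also required cells to be negative for the other protein of the sort. Cells of that gate therefore fall outside the sort used for the RNA.

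All 10 genes had a RefSeq promoter window of 300 bases, which ran from 250 bases before to 50 bases after the start site (build GRCm38.p6), and the windows of the 4 granule genes are shown because these genes make the proteins of the cytotoxic granule. Capitals mark a 6-letter word of RUNX factors, TGTGGT, or ACCACA where it lies on the other strand.
Nkg7 promoter, chr7:43436888-43437187, plus strand: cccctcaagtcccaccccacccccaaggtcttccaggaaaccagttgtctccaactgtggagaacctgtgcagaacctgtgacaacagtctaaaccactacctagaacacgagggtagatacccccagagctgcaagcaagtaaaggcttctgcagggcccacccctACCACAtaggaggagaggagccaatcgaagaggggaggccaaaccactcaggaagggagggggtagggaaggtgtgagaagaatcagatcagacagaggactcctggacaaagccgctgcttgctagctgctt
Gzma promoter, chr13:113100932-113101231, minus strand: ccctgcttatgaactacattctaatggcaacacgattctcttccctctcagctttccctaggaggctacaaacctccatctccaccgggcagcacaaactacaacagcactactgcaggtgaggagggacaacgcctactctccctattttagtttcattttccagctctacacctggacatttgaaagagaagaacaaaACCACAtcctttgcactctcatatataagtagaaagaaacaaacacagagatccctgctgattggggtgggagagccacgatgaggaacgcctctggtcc
Gzmb promoter, chr14:56262285-56262584, minus strand: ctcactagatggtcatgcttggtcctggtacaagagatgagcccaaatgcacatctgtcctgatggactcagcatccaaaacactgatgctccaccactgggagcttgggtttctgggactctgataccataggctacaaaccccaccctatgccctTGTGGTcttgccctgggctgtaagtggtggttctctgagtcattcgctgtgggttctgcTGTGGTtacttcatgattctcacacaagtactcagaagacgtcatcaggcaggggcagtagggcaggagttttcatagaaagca
Prf1 promoter, chr10:61297586-61297885, plus strand: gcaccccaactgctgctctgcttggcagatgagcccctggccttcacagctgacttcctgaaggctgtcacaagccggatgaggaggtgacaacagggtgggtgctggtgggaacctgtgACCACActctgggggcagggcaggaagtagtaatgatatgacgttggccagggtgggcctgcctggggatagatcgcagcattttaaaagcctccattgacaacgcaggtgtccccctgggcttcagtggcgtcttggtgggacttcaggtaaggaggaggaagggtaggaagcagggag
The RUNX word began 83 bases before the start site in Nkg7, 50 in Gzma, 93 and 34 in Gzmb and 130 in Prf1. On either strand it occurred in the windows of 8 of the 10 genes, Tbx21 and Eomes being the 2 without it, and in 16.8% of all 32851 windows of the table. The T-box word AGGTGT occurred in 3 of the 10 (Nkg7, Gzma and Prf1) and in 13.7% of all windows, and the ETS word AGGAAG in 6 of the 10 and in 35.4% of all windows. No match of one word overlapped a match of another in the 4 windows shown. These are matches of letters and were not tested as binding sites.

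The deposited counts of a library summed to 53297943 to 67951168. All 10 genes passed the filter on low counts, which asked for about 0.167 CPM (counts relative to the library total) in 3 libraries and left 20204 genes for testing. Ncr1, Klre1, Prf1 and Xcl1 passed it only through their 48 h libraries, so a higher level at 48 h was built into their passing, and Eomes passed through 1 library of each time. For this reason counts over the 10 genes are given as a description. Levels are CPM scaled by the trimmed mean of M-values (TMM). A library listed at 0 allows a level of up to 0.0335 to 0.0600 CPM (3 counts of its total, counting error only).

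Among the receptors, Klrb1c rose at 48 h, 9.07-fold against 0 h and 14.9-fold against 24 h, and Klre1 rose against 24 h. Klrb1c had 0.560, 0.820 and 1.18 CPM in replicates 1 to 3 at 0 h, 0.305, 0.222 and 1.03 CPM at 24 h and 9.79, 3.08 and 10.4 CPM at 48 h. All 3 libraries at 48 h lay above all 6 earlier ones, and replicate 2 was the low one of the 3. The log2 fold change was 3.18 (SE 0.69) against 0 h and 3.90 (SE 0.71) against 24 h, with adjusted p = 0.00905 and 0.00352 from edgeR's quasi-likelihood test, and both calls held without any 1 library (highest adjusted p = 0.0476 and 0.0207), the change against 24 h being 4.92 without 24 h replicate 3. Klre1, whose protein pairs with Klri1 or Klri2 on NK cells, had 0.180, 0.0364 and 0.312 CPM at 0 h, 0, 0 and 0.187 CPM at 24 h and 0.850, 2.26 and 3.53 CPM at 48 h. The 48 h libraries lay above the earlier ones here as well. The change against 24 h was 5.10 (SE 1.51, adjusted p = 0.0381 from edgeR) and that against 0 h 3.63 (SE 1.39, adjusted p = 0.0989). The first call was lost without 0 h replicate 1 (adjusted p = 0.0626) or 3 (0.0528), 24 h replicate 1 (0.104) or 2 (0.100), or 48 h replicate 2 (0.0550) or 3 (0.0879), and with the 2 times fitted alone (0.0582). The comparison with 0 h passed without 24 h replicate 3 (0.0470), with the 2 times alone (0.0428), with DESeq2 (0.0125) and with counts divided by 4 (0.0243). Without 24 h replicate 3 the remaining 24 h libraries held no Klre1 count.

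Ncr1 did not pass the test. It had 0, 0 and 0.937 CPM at 0 h, 0.0762, 0.185 and 0.149 CPM at 24 h and 2.42, 0.781 and 5.53 CPM at 48 h. The 48 h libraries were above all those of 24 h, while 48 h replicate 2 lay below 0 h replicate 3, the only 0 h library with a count. The log2 fold change at 48 h was 3.21 (SE 1.56, adjusted p = 0.190 from edgeR) against 0 h and 4.39 (SE 1.66, adjusted p = 0.0918) against 24 h. Without 0 h replicate 3 both comparisons passed (adjusted p = 0.00493 and 0.0153), with the other 0 h libraries at 0. The comparison with 24 h also passed with DESeq2 (0.0121), with the 2 times alone (0.0149) and with counts divided by 4 (0.0304). Klrb1c and Klre1 belong to a cluster of similar lectin-like genes, so reads shared with near copies make their exact levels uncertain.

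**Figure D1:**
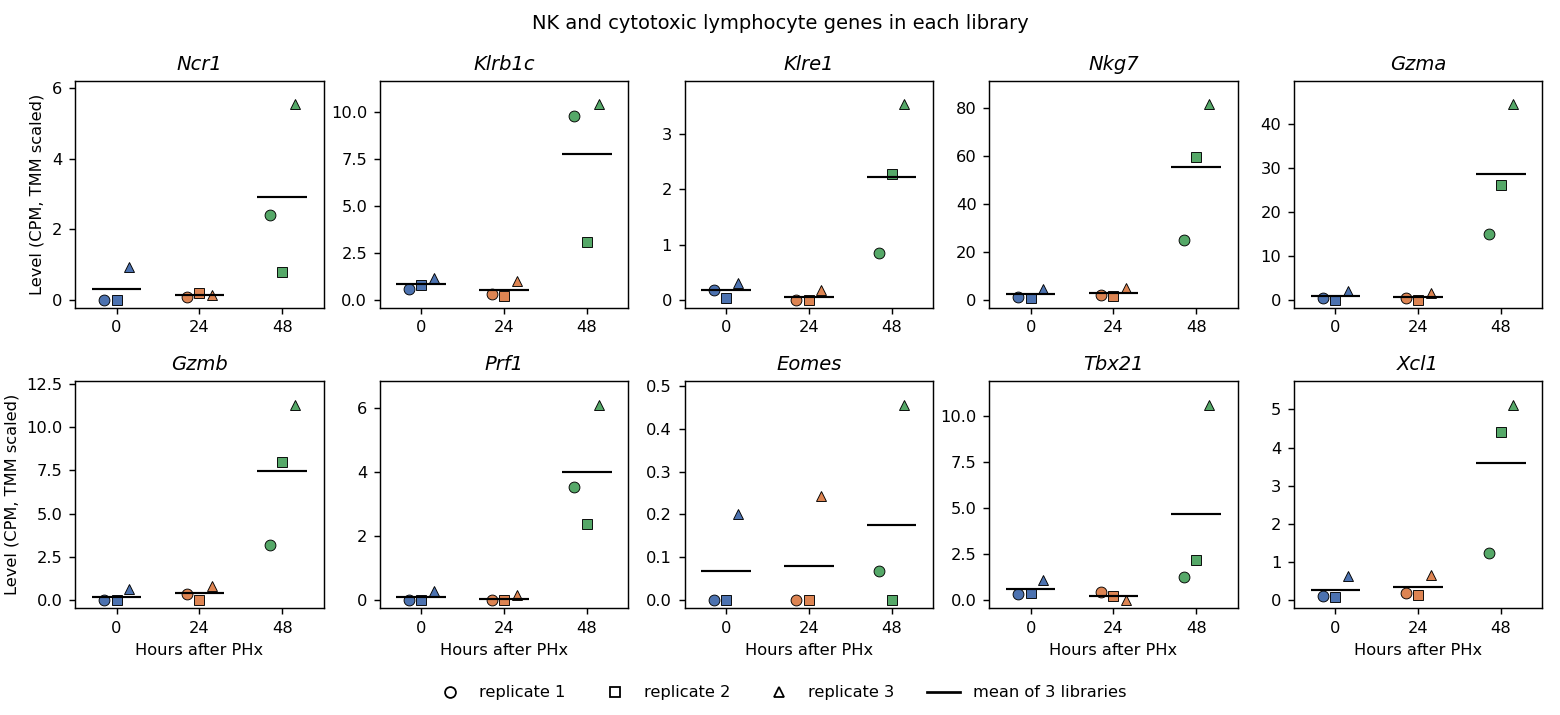
Level of each of the 10 genes (CPM, TMM scaled, linear axis from about 0 that differs between panels) against hours after PHx, with 1 symbol per library (circle, square and triangle for replicates 1, 2 and 3) and a line at the mean of 3 libraries. At 48 h the triangle (replicate 3) is the highest in every panel, at 81.6 CPM for Nkg7 and 0.456 CPM for Eomes.

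Of the granule genes, Nkg7 was the most abundant and rose 23.9-fold at 48 h against 0 h. Its protein sits in the membrane of cytotoxic granules and takes part in their release. Nkg7 had 1.32, 0.929 and 4.70 CPM at 0 h, 2.27, 1.54 and 5.19 CPM at 24 h and 24.9, 59.7 and 81.6 CPM at 48 h. The lowest 48 h library was above the highest earlier one, and replicate 3 was the high one at each time. The log2 fold change was 4.58 (SE 0.73, adjusted p = 0.00160 from edgeR) at 48 h against 0 h and 4.21 (SE 0.72, adjusted p = 0.00242) against 24 h, and both calls held without any 1 library (highest adjusted p = 0.0120 and 0.0161). The change was 5.62 against 0 h without 0 h replicate 3 and 4.90 against 24 h without 24 h replicate 3.

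Both granzymes rose at 48 h against 0 h, Gzma 32.2-fold and Gzmb 35.3-fold as fitted. Replicate 3 held all Gzmb counts and 115 of the 142 Gzma counts at 0 h, and without it the fitted changes were larger. Gzma had 0.540, 0 and 2.11 CPM at 0 h, 0.381, 0 and 1.66 CPM at 24 h and 15.04, 26.3 and 44.5 CPM at 48 h. Replicate 2 of both earlier times was at 0, and no 48 h library overlapped with them. For Gzma the log2 fold change was 5.01 (SE 1.38, adjusted p = 0.0288 from edgeR) against 0 h and 5.39 (SE 1.41, adjusted p = 0.0223) against 24 h. The first call was lost without 0 h replicate 1 (adjusted p = 0.116) or 2 (0.0608) or 48 h replicate 3 (0.0684), and the second without 24 h replicate 1 (0.0885) or 48 h replicate 3 (0.0529). Without 0 h replicate 3 the Gzma change against 0 h was 6.74, and without 24 h replicate 3 that against 24 h was 7.26. Gzmb had 0, 0 and 0.625 CPM at 0 h, 0.381, 0 and 0.822 CPM at 24 h and 3.19, 7.97 and 11.3 CPM at 48 h. Again the 48 h libraries stood above all others. For Gzmb the log2 fold change was 5.14 (SE 1.61, adjusted p = 0.0488 from edgeR) against 0 h and 4.21 (SE 1.53, adjusted p = 0.0800, not past the threshold) against 24 h. The Gzmb call was held by a narrow margin, being lost with DESeq2 (adjusted p = 0.0890), with limma-voom (0.0623) and without any 1 library except 0 h replicate 3 and 24 h replicate 2 (adjusted p between 0.0502 and 0.133), while the comparison with 24 h passed without 0 h replicate 3 (0.0390), with no filter (0.0367), with limma-voom (0.0480), with the 2 times alone (0.0386) and with counts divided by 4 (0.0141). Without 0 h replicate 3 no Gzmb count was left at 0 h, and the fitted change of 11.82 is no bound.

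Prf1 rose at 48 h, with fitted changes of 42.4-fold against 0 h and 77.1-fold against 24 h over earlier levels near 0. It had 0, 0 and 0.276 CPM at 0 h, 0, 0 and 0.149 CPM at 24 h and 3.55, 2.37 and 6.09 CPM at 48 h. Only replicate 3 of each earlier time had a count, 15 and 8 counts in all against 870 counts over the 48 h libraries. The log2 fold change was 5.40 (SE 1.63, adjusted p = 0.0417 from edgeR) against 0 h and 6.27 (SE 1.72, adjusted p = 0.0274) against 24 h. The call against 0 h was lost with DESeq2 (adjusted p = 0.0951) and without 0 h replicate 1 (0.123) or 2 (0.117) or 48 h replicate 1 (0.0599) or 3 (0.0925), and that against 24 h without 24 h replicate 1 (0.0921) or 2 (0.0872) or 48 h replicate 3 (0.0622). Both folds rested on 1 earlier library each, since without 0 h replicate 3 or 24 h replicate 3 that time held no Prf1 count, and the fitted changes of 10.92 and 10.95 are no bounds.

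Of the T-box factors, Tbx21 was called higher at 48 h against 24 h, and Eomes was at or near 0 in most libraries and passed in no comparison. Tbx21 had 0.320, 0.401 and 1.08 CPM at 0 h, 0.438, 0.222 and 0 CPM at 24 h and 1.25, 2.19 and 10.6 CPM at 48 h. All 48 h libraries were above the earlier ones, but replicate 3 was far above the other 2. The log2 fold change of Tbx21 was 4.40 (SE 1.25, adjusted p = 0.0319 from edgeR) at 48 h against 24 h and 2.95 (SE 1.16, adjusted p = 0.106) against 0 h. Without 48 h replicate 3 these were 3.00 (adjusted p = 0.134) and 1.56 (0.427), and the call against 24 h was also lost without 24 h replicate 1 (0.0520, with a change of 5.41), 2 (0.101) or 3 (0.0525), with limma-voom (0.127), with the 2 times alone (0.0546) and with the replicate number as a block (0.108). The comparison with 0 h passed with DESeq2 (0.0205) and with counts divided by 4 (0.0483).

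Eomes had 0, 0 and 0.202 CPM at 0 h, 0, 0 and 0.243 CPM at 24 h and 0.0671, 0 and 0.456 CPM at 48 h. Its counts summed to 11 at 0 h, 13 at 24 h and 36 at 48 h, and the times overlapped. On the log2 scale the change was 1.34 (SE 2.25, adjusted p = 0.751 from edgeR) at 48 h against 0 h and 1.08 (SE 2.23, adjusted p = 0.795) against 24 h, and both turned negative without 48 h replicate 3 (-0.86 and -1.14). Per length, Tbx21 was at 31.2 times the level of Eomes in 48 h replicate 1 and 38.8 times in replicate 3, and Eomes was at 0 in replicate 2. These ratios are rough, resting on 6 and 30 Eomes counts. The ratio was 8.96 in 0 h replicate 3, and in 24 h replicate 3 Tbx21 was at 0 with Eomes present. Whether the changes of the 2 factors differ was not tested.

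Xcl1 encodes a chemokine that NK cells and activated T cells release and that draws the dendritic cells which carry its receptor, Xcr1. Xcl1 had 0.100, 0.0729 and 0.643 CPM at 0 h, 0.190, 0.148 and 0.672 CPM at 24 h and 1.23, 4.40 and 5.12 CPM at 48 h. The 48 h libraries did not overlap with the earlier ones. Its log2 fold change was 3.71 (SE 1.03, adjusted p = 0.0299 from edgeR) at 48 h against 0 h and 3.40 (SE 1.02, adjusted p = 0.0392) against 24 h. The call against 0 h was lost with limma-voom (adjusted p = 0.0656) and without 0 h replicate 1 (0.111) or 2 (0.101) or 48 h replicate 2 (0.0546) or 3 (0.0694), that against 24 h with limma-voom (0.0732) and without 24 h replicate 1 (0.133) or 2 (0.128) or 48 h replicate 2 (0.0683) or 3 (0.0866). Without 0 h replicate 3 the change against 0 h was 5.34, and without 24 h replicate 3 that against 24 h was 4.42. Its receptor Xcr1 rose as well, with 0.360, 0.291 and 0 CPM at 0 h, 0.819, 0.647 and 0.747 CPM at 24 h and 13.2, 19.0 and 16.1 CPM at 48 h. For Xcr1 the log2 fold change was 6.21 (SE 0.80, adjusted p = 0.000401 from edgeR) at 48 h against 0 h.

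Over the 10 genes, Klrb1c, Nkg7, Gzma, Gzmb, Prf1 and Xcl1 were called higher at 48 h against 0 h, which is 6 of 10, and none was called lower. Over all genes tested, 9.86% were called higher and 8.95% lower in this comparison. Against 24 h the genes called higher were Klrb1c, Klre1, Nkg7, Gzma, Prf1, Tbx21 and Xcl1, 7 of 10, with none lower, beside 10.2% higher and 9.6% lower of all genes. All 48 h libraries lay above all 0 h libraries for 8 of the 10 genes (16.5% of all genes) and above all 24 h libraries for 9 of the 10 (17.2% of all genes). The median log2 fold change of the 10 genes was 3.67 at 48 h against 0 h and 4.30 against 24 h, with medians of -0.04 and 0.05 over all genes tested. Both comparisons share the 48 h libraries. Of the genes counted here, Ncr1, Klre1, Prf1 and Xcl1 passed the filter only through their 48 h libraries. A higher level at 48 h was built in for them, so these counts and medians are a description. The shares over all genes move with the scaling, since 52.4% of the calls at 48 h against 0 h were higher with TMM and 77.7% with plain library totals, which moved the median of all genes up by 0.37 (by 0.41 against 24 h, 51.6% and 79.3% higher). The counts for the 10 genes were 6 and 7 under both.

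The counts of called genes changed when single libraries were left out, which also leaves fewer libraries to test. At 48 h against 0 h 2 of the 10 were called when 0 h replicate 1, 0 h replicate 2 or 48 h replicate 3 was left out, and 7 when 0 h replicate 3 was. Over all genes 1303, 1340, 1847 and 1400 were then called higher, in that order, against 1992 with all libraries. Against 24 h 2 were called when 24 h replicate 1 or 48 h replicate 3 was left out, and 3 when 24 h replicate 2 was. The counts over all genes were then 1409, 1979 and 1425, against 2070 with all libraries. Klrb1c and Nkg7 kept their calls in both comparisons under all 19 alternatives that were run.

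**Figure D2:**
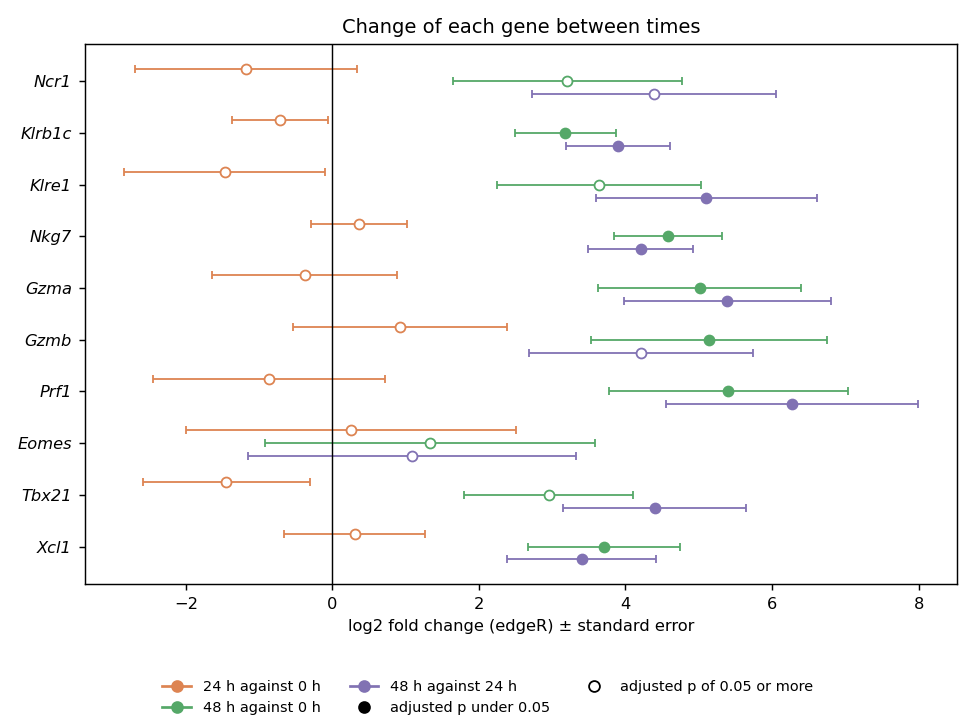
Log2 fold change of each of the 10 genes from edgeR (x axis, with bars of 1 standard error) for 24 h against 0 h, 48 h against 0 h and 48 h against 24 h, filled where the adjusted p was under 0.05. The open symbols of 24 h against 0 h lie between -1.47 (Klre1) and 0.93 (Gzmb), and the values of both 48 h comparisons lie to the right of 0 for all 10 genes, Eomes having the lowest.

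None of the 10 genes was called at 24 h against 0 h, with edgeR's quasi-likelihood test, DESeq2 or limma-voom, and none had an unadjusted p under 0.05 with edgeR. Over all genes tested 0.0495% were called higher and 0.0297% lower. The mean level was higher at 24 h for 4 of the 10 genes (Nkg7, Gzmb, Eomes and Xcl1) and lower for the other 6, with a median log2 fold change of -0.55 (-0.03 over all genes). No gene of the 10 had all 24 h libraries above all 0 h libraries, which 8.37% of all genes did. Standard errors of 0.65 to 2.25 on the log2 scale leave changes of several fold at 24 h undetectable for most of these genes.

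The 10 genes summed to 3.02, 2.26 and 12.1 CPM in replicates 1 to 3 at 0 h, 4.04, 2.31 and 10.1 CPM at 24 h and 62.3, 109 and 179 CPM at 48 h. Replicate 3 was the highest library for all 10 genes at 0 h, for 8 of 10 at 24 h (Ncr1 was highest in replicate 2 and Tbx21 in replicate 1) and for all 10 at 48 h. The lowest 48 h library was replicate 1 for 6 genes and replicate 2 for Ncr1, Klrb1c, Prf1 and Eomes. In the 48 h libraries Nkg7 held 39.99% to 54.7% of the summed level, Gzma 24.1% to 24.9%, Gzmb 5.12% to 7.31% and Klre1 1.36% to 2.08%. The shares of the other genes varied more between libraries, from 2.82% to 15.7% for Klrb1c, 0.717% to 3.88% for Ncr1, 2.18% to 5.69% for Prf1, 2.01% to 5.91% for Tbx21, 1.98% to 4.04% for Xcl1 and 0 to 0.255% for Eomes.

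Divided by exon length, the mean levels at 48 h ran in the order Nkg7, Gzma, Xcl1, Gzmb, Klrb1c, Ncr1, Tbx21, Prf1, Klre1 and Eomes. Nkg7 was at 60.6 ± 31.3 CPM per kb and Gzma at 28.4 ± 14.8 CPM per kb (SD, n = 3), and although their ranges over libraries overlapped, Nkg7 was above Gzma in each 48 h library, at ratios of 1.82, 2.50 and 2.02. Xcl1 followed at 6.86 ± 3.96 CPM per kb, below every 48 h value of Gzma. From Xcl1 down to Klre1, which was at 0.634 ± 0.383 CPM per kb, each gene's range over libraries overlapped with that of the next in order. Eomes, at 0.0420 ± 0.0592 CPM per kb, lay below every value of Klre1. Gzma exceeded Gzmb 6.74, 4.71 and 5.64 times per length in the 3 libraries of 48 h, a steadier ratio than that of Gzma to Prf1 (10.9, 28.4 and 18.8 times).

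Of the 10 genes with a symbol whose course over the 9 libraries was most like the mean course of the studied genes, 9 are known from lymphocytes. Likeness was the root mean square difference of log2 CPM, each gene centred on its own mean, over all genes tested. These were 4930439D14Rik (0.60), Cd6 (0.62), Il2rb (0.62), Tnfrsf13c (0.67), Iglc2 (0.68), Spib (0.69), Cd3d (0.69), Fcmr (0.70), Trac (0.70) and Cd226 (0.72). Cd6, Cd3d and Trac are T-cell genes, Tnfrsf13c, Iglc2, Spib and Fcmr are B-cell genes, and Il2rb and Cd226 are receptors that NK and T cells share. Among the studied genes, Nkg7 (0.47) and Xcl1 (0.58) ranked 2 and 3 of the 20204 genes tested, after a gene with no symbol, and Eomes (1.74), Tbx21 (1.66) and Gzma (1.64) were the farthest. The mean course contains the studied genes themselves, which favours their ranks. The 9 libraries share their times, so the likeness is a description.

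Among the other NK receptors and adaptors, 7 of the 23 tested (29 listed) were called higher at 48 h against 0 h and 4 lower, with a median of 1.25. Klrc2 was at 0 in all 0 h libraries and Klrg1 at 0 in both times. With Klrc2 set from a floor of 3 counts over the 0 h libraries and Klrg1 left out, the median was 1.75. Over all genes tested 9.86% were called higher and 8.95% lower at 48 h against 0 h. The same shares apply to the lists that follow. Against 24 h the counts were again 7 and 4, with 4 higher without 24 h replicate 3, beside 10.2% and 9.6% of all genes. DESeq2 called 12 and 13 of these receptors and adaptors higher. Over all genes it called 2980 and 3116 higher, where edgeR called 1992 and 2070. Cd160, a receptor of liver NK cells and ILC1, had 0.340, 0.437 and 0.992 CPM at 0 h, 0 in all 24 h libraries and 5.58, 9.996 and 19.3 CPM at 48 h. Its log2 fold change at 48 h against 0 h was 4.29 (SE 0.64, adjusted p = 0.00206 from edgeR). Against 24 h its pooled 48 h level was 586 times a floor of 3 counts over the time. That is no strict bound, since counting error is larger than the totals give. Klrk1, which encodes the activating receptor NKG2D, was higher (log2 difference 2.93, adjusted p = 0.000184), with means of 21.1 ± 3.95 CPM in the 48 h libraries against 2.76 ± 1.00 CPM in those of 0 h (SD, n = 3 each). Fcer1g and Tyrobp, adaptors that macrophages also use in quantity, fell, Fcer1g by 2.32 on the log2 scale (adjusted p = 0.000332) and Tyrobp by 1.94 (adjusted p = 0.000674). Fcer1g averaged 1946 ± 751 CPM in the 48 h libraries against 9749 ± 1185 CPM in those of 0 h. Klri1, a partner of Klre1 that was picked after its values were seen, was also called higher, by 3.93, and the other partner, Klri2, was not (2.26, adjusted p = 0.385).

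Of the 11 cytokine and chemokine receptors of NK cells, 2 were called higher and 2 lower at 48 h against 0 h (median 0.16). Il2rb, the chain that NK cells use for interleukin 2 and 15, had 0.480, 0.911 and 2.48 CPM at 0 h, 0.762, 0.962 and 1.47 CPM at 24 h and 18.7, 11.2 and 29.4 CPM at 48 h, a log2 fold change of 3.93 at 48 h against 0 h (SE 0.61, adjusted p = 0.00136 from edgeR). Cxcr3, a homing receptor of NK and T cells, rose by 2.24 (adjusted p = 0.00485). Ifngr1, a chain of the interferon gamma receptor, fell by 1.00 (adjusted p = 0.0154). The Ifngr1 call was lost without 0 h replicate 2 (adjusted p = 0.0542) or 3 (0.0598) or 48 h replicate 2 (0.0592) and with plain library totals (0.119), and the list then had 1 gene lower.

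The other cytotoxic effectors and NK cytokines split by gene, with 3 of 9 tested (12 listed) higher and 2 lower at 48 h against 0 h and a median of 2.81. Tnfsf10, the death ligand TRAIL, had 11.3, 17.9 and 18.8 CPM in the 48 h libraries against 1.92, 2.22 and 2.17 CPM in those of 0 h and a log2 difference of 2.93 (edgeR's adjusted p = 8.16e-05). Ccl5, a chemokine of cytotoxic lymphocytes, rose by 3.27 (adjusted p = 0.000160), with 149, 80.2 and 150 CPM in the 48 h libraries. Ccl4 and Ccl3, chemokines that macrophages release in quantity as well, fell by 3.84 and 3.44 (adjusted p = 0.000266 and 0.00104). Of the 10 genes of granule maturation and exocytosis, 2 were called higher and 2 lower (median -0.22), with 4 lower without 48 h replicate 1. Serpinb9, an inhibitor of granzyme B, rose by 1.94 (adjusted p = 0.000498), and Serpinb6b by 2.75 (adjusted p = 0.00425). Srgn, the core protein of the granule matrix, fell by 2.32 (adjusted p = 0.000447), to 335 ± 98.4 CPM in the 48 h libraries against 1676 ± 117 CPM in those of 0 h, and Ctsc, the protease that activates granzymes, fell by 1.73 (adjusted p = 0.00130). Both are also made by macrophages. Which cells made the RNA of the rising or falling genes in these lists was not tested.

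Of the 13 other transcription factors of NK cells and innate lymphoid cells, 5 were called higher and 5 lower at 48 h against 0 h (median 0.46). Ets1, which NK and T cells need, was higher by a log2 difference of 3.16 (edgeR's adjusted p = 7.96e-06), with means of 74.0 ± 10.6 CPM in the 48 h libraries against 8.29 ± 1.42 CPM in those of 0 h (SD, n = 3 each). Nfil3 fell by 3.32 (adjusted p = 0.000121), Prdm1 by 1.59 (adjusted p = 0.00208) and Runx3 by 1.31 (adjusted p = 0.00869, lost with plain library totals at 0.0638), all of which myeloid cells use too. Leaving out 0 h replicate 1 or 2 gave 2 higher and 3 lower, and leaving out 0 h replicate 3 or 48 h replicate 3 gave 3 higher. Against 24 h 5 were again higher (3 without 24 h replicate 1 or 2) and 5 lower. Of the 18 ligands and cytokines that act on NK cells (19 listed), 5 were called higher and 2 lower (median 0.19). This list also holds Xcr1, the receptor of Xcl1 on dendritic cells. Xcr1 is among the 5 called higher and is counted with the dendritic cell markers too. Besides Xcr1, Cxcl9, a ligand of Cxcr3, rose by 4.60 (adjusted p = 7.31e-06), to 70.1, 88.9 and 126 CPM in the 48 h libraries against 3.56, 3.22 and 4.96 CPM in those of 0 h, and Cxcl16 rose 2.83-fold (adjusted p = 0.000553). Raet1e, a ligand of NKG2D, fell to 0, 0.0625 and 0 CPM at 48 h, against 2.86, 2.90 and 2.13 CPM at 0 h (adjusted p = 0.00256), and the 2 lower of this list were 1 without any 1 of 0 h replicates 1 to 3, 24 h replicates 1 to 3 or 48 h replicate 2. Of the 84 genes tested in these 6 lists none was called at 24 h against 0 h by edgeR as reported or by limma-voom, and edgeR's p before adjustment was under 0.05 for 13 with a higher and 4 with a lower level. DESeq2 called 5 higher and 2 lower, among them Ccl4 (1.68), Ccl5 (1.60), Srgn (1.33) and Ets1 (0.98) higher and Cd160 lower (adjusted p = 1.16e-05), and edgeR without the filter called 2 higher and 1 lower, Ccl5 (adjusted p = 0.0371) and Cd160 (0.00424) among them.

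**Figure D3:**
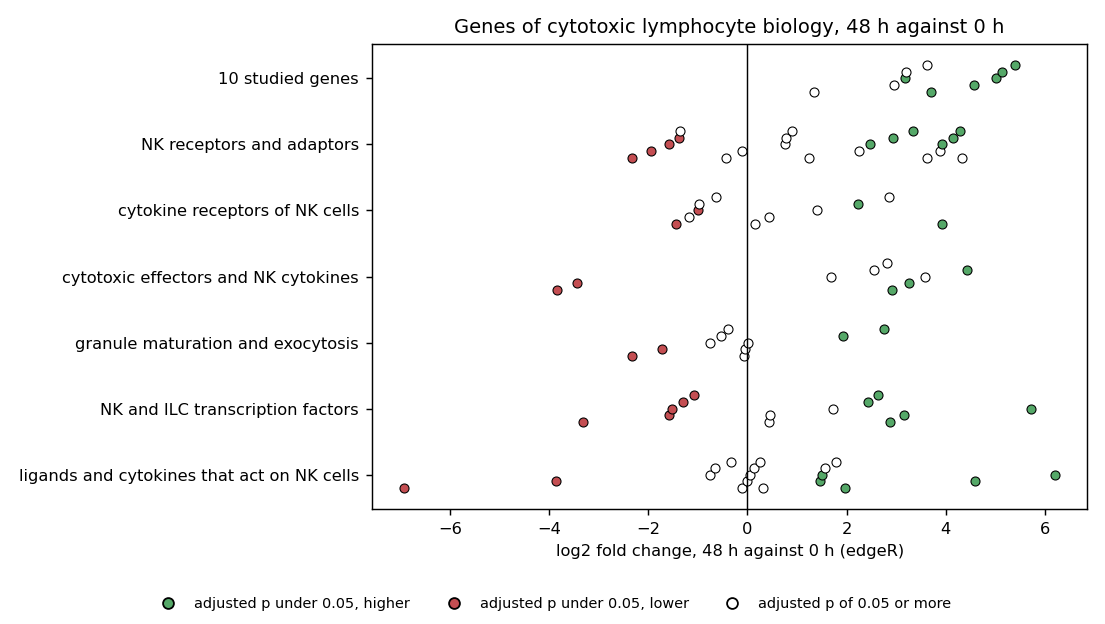
Log2 fold change at 48 h against 0 h from edgeR (x axis) of the 10 genes and of the tested genes in 6 lists of NK biology, 1 symbol per gene, coloured where the adjusted p was under 0.05 (green higher, red lower). All symbols of the 10 genes lie to the right of 0, while each of the other lists spreads over both sides, and Klrc2 and Klrg1, at 0 in all 0 h libraries, are not drawn.

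Markers of other cells moved with the 10 genes. Of 16 T-cell markers, 11 were called higher at 48 h against 0 h and none lower, and their sum was 7.54 to 16.7 CPM at 0 h, 6.16 to 10.2 CPM at 24 h and 88.9 to 195 CPM at 48 h, highest in replicate 3 of each time. Cd3g had 0.300, 1.13 and 1.23 CPM at 0 h, 0.0952, 0.222 and 1.10 CPM at 24 h and 9.28, 11.5 and 17.1 CPM at 48 h. Cd3e, at 0 in 0 h replicate 3 and 24 h replicates 1 and 2, reached 1.78, 3.58 and 8.19 CPM at 48 h (adjusted p = 0.0212 against 0 h from edgeR, lost without any 1 of the 0 h libraries or 48 h replicate 3, adjusted p between 0.0579 and 0.0868). The sum of the 10 genes over that of the T-cell markers was 0.401, 0.284 and 0.724 at 0 h, 0.427, 0.375 and 0.991 at 24 h and 0.701, 0.833 and 0.918 at 48 h.

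B-cell markers were called higher in 8 of 10 genes (sum 15.3 to 38.7 CPM at 0 h, 18.1 to 40.9 CPM at 24 h and 387 to 829 CPM at 48 h), with Cd79a up by 5.29 and Ms4a1 by 4.56 on the log2 scale (adjusted p = 0.000140 and 0.000400 from edgeR). Endothelial markers were called higher in 10 of 10, their sum being 168 to 184 CPM at 0 h, 298 to 512 CPM at 24 h and 3923 to 4882 CPM at 48 h, and dendritic cell markers in 6 of 8. Of 7 ILC1 markers 2 were called higher, 1 lower and 4 not called, with log2 fold changes from -2.01 up and a median of 0.51. Cxcr6, picked from this list after its values were seen, had 0.480, 0.0729 and 0.367 CPM at 0 h and 5.87, 8.39 and 12.7 CPM at 48 h. Macrophage markers summed to 66699 to 85451 CPM at 0 h, 37872 to 84041 CPM at 24 h and 11390 to 30314 CPM at 48 h, 1 of 10 being called higher and 4 lower at 48 h against 0 h (2 lower without 0 h replicate 1 or 2 or 48 h replicate 3, and with plain library totals). Of 8 Kupffer cell markers, which mark the resident macrophages of the liver, 4 were called higher and 1 lower (median 2.03). Their sum was 579 to 1259 CPM at 0 h, 1786 to 2292 CPM at 24 h and 723 to 4734 CPM at 48 h. All 24 h sums lay above those of 0 h, and the 48 h range overlapped with both earlier ones. The 4 higher were 1 without 0 h replicate 1 or 2 and 2 with the 2 times alone or without 48 h replicate 1, which also gave 2 lower. The sort markers differed, since Adgre1, which encodes F4/80, changed by -0.13 (adjusted p = 0.857 from edgeR) and Itgam, which encodes CD11b, fell by 1.62 (adjusted p = 0.00613). Of 7 monocyte markers 6 were called lower. The share of counts from the mitochondrial genome lay between 3.01% and 4.53% at 0 h, between 2.37% and 3.72% at 24 h and between 7.06% and 17.9% at 48 h. The part of other cell types and of the mitochondrial share in the changes of the 10 genes, and of the genes in the lists, was not tested.

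**Figure D4:**
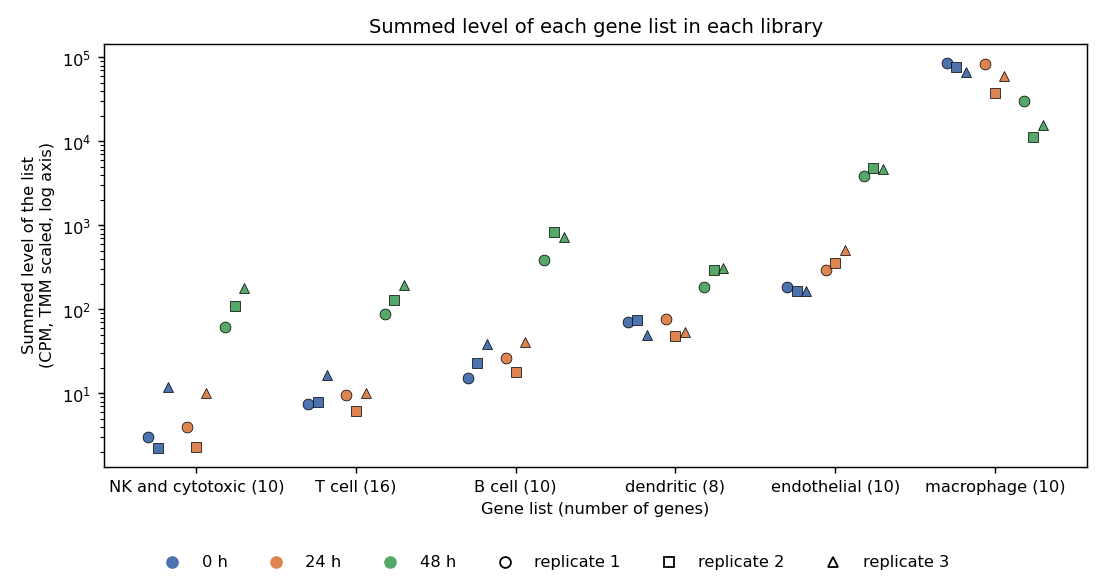
Summed level (CPM, TMM scaled, log axis) of the 10 genes and of 5 marker lists in each library, coloured by time, with circle, square and triangle for replicates 1, 2 and 3. The 10 genes, T-cell, B-cell, dendritic and endothelial markers all stand higher at 48 h than at 0 and 24 h, while the macrophage markers are at 11390 to 30314 CPM at 48 h, below every earlier library.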

How the data were processed

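RNA of sorted mouse liver macrophages was measured in 3 libraries per time (0, 24 and 48 h after PHx). The deposited table held whole numbers per gene and library, which are treated as estimated counts since 40.9% to 47.6% of the values from 4 to 40 in a library were multiples of 4, so that counting error is larger than the totals give. For how the authors made these estimated counts, featureCounts 1.5.0-p3, HISAT2 2.0.5 and CASAVA 1.8 are listed in the submitters' processing notes, with no role given for each. The build behind the counts was not given in the sources used here. Gene symbols were matched to 52073 of 56691 IDs. Genes were filtered with filterByExpr (minimum count 10), which left 20204, scaled by TMM and fitted over all 9 libraries with edgeR 4.0.16 in R 4.3.3 (glmQLFit and glmQLFTest, time as the only factor). P-values were adjusted by Benjamini-Hochberg over all genes tested, with a threshold of 0.05 and no fold minimum. An SE is the log2 fold change divided by the square root of F. Lengths are unions of GENCODE M21 exons. Promoter windows are from RefSeq (GRCm38.p6), and matches of 6-letter words were counted on both strands.

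The genes and lists were chosen with earlier results of these data known. Named beside the 10 genes were, from each list, the 4 with the smallest p among those called in any comparison, the 10 genes with a symbol nearest to the mean course, and Cd3e, Cd3g, Cd79a, Ms4a1, Adgre1 and Itgam. Cxcr6 and Klri1 were added after their values were seen. One gene that this rule names is not reported here. The steps were tested on simulated counts. No 2 libraries of a time were copies (chi-square of at least 100.0 per gene). The alternatives were RLE factors, plain library totals, DESeq2 1.42.0, no filter, limma-voom (limma 3.58.1), a minimum of 10 counts per library, a fit of the 2 times alone, a replicate block, counts divided by 4, mitochondrially encoded genes left out, and each library left out in turn. Running them on the other lists was decided after the data were seen.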

Additional observations from a re-analysis of the deposited data

How the results depend on the processing

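Of the 10 genes, 6 were called higher at 48 h against 0 h and 7 against 24 h. With each library left out in turn the counts ranged from 2 to 7 and from 2 to 8. A minimum of 10 counts in every library left only Klrb1c and Nkg7, 2 genes in each comparison, both called. Klrb1c and Nkg7 also kept both calls under every alternative run. limma-voom called 4 and 6, DESeq2 6 and 8, and counts divided by 4 gave 8 and 9. None of the 10 genes was called lower in any comparison, or called at 24 h against 0 h, under any alternative. Apart from Eomes, all 164 values under the alternatives in each 48 h comparison were positive. At 24 h against 0 h 66 of 175 values were positive. Same-numbered libraries of different times correlated between -0.015 and 0.07 in their deviations from the time means over all genes, so the numbers were not taken as pairs, although replicate 3 was the highest library for 10, 8 and 10 of the 10 genes at 0, 24 and 48 h. With the replicate block 6 were called against 0 h and 6 against 24 h (Tbx21 lost, adjusted p = 0.108 from edgeR). Over all genes, calls at 24 h against 0 h ranged over the alternatives from 0 to 257 higher (10 as reported) and from 0 to 118 lower (6). At 48 h they ranged from 1303 to 3195 higher (1992) and from 919 to 2608 lower (1809) against 0 h, and from 1409 to 3709 higher (2070) and from 970 to 2673 lower (1940) against 24 h. The NK receptors called higher were 2 and 3 with at least 10 counts in every library, and the T-cell markers 6 and 6. The cause of these shifts was not tested. At 0 h Prf1 had 15 counts and Eomes 11 over 3 libraries, which limits the precision of their fold changes.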
